A study of Danio rerio with 8 samples.

Results

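The genes described here build the sarcomere, the contractile unit of striated muscle, or couple the electrical signal at the muscle membrane to contraction. Members were all genes on the array whose symbol starts with one of 28 family prefixes, such as *tpm* for tropomyosins, *actc1* and *acta1* for muscle actins, *myh* for myosin heavy chains, *ttn* for titin and *atp2a* for calcium pumps. The rule used names and no measured value, but it was chosen with earlier results of these data known. It found 42 of the 8793 genes with a name on the array, measured by 50 of 15502 probe sets, and 19 of the 28 prefixes had a member. Each gene is represented by its probe set with the highest mean over the 8 arrays. Of the 42 members, 32 were counted as skeletal or general striated muscle forms. The other 10 share a prefix but are chiefly known from non-muscle, cardiac, neuronal or other cells (*myh9a*, *myh10*, *tpm4a*, *tpm4b*, *actn1*, *ckmt1*, *mybpc3*, *tmod2*, *cacng2b* and *cacna1ha*). The split is not strict. The 32, called skeletal forms below, also hold genes that are not particular to skeletal muscle. Examples are *casq2*, *myh7*, *atp2a2a*, *atp2a2b*, *cacna1c*, *cacnb2b* and *tpm3*.

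The RNA came from 2 zebrafish embryonal rhabdomyosarcomas, a tumour that resembles developing skeletal muscle. All 8 samples share the same origin. Embryos carrying a myf5-GFP and a mylz2-mCherry transgene were injected with rag2-kRAS12D, an activated RAS under the promoter of the recombination gene *rag2*, and tumour cells were passed into syngeneic CG1-strain recipients (4 times outcrossed) without reporters. Tumours were taken more than 20 days after transplantation. From each, 4 populations were sorted by fluorescence: GFP-only cells (GFP positive, mCherry negative), double-positive cells, mCherry-only cells and double-negative cells. The *myf5* promoter marks muscle progenitors and the promoter of *mylz2*, now named *mylpfa*, marks differentiating fast muscle, so a population is defined by reporter protein, which can outlast its promoter's activity. The double-negative gate takes any cell without either reporter, so cells of the recipient can fall in it. Each population has 1 array per tumour, and paired values below give tumour 1 first and tumour 2 second.

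In a sarcomere, thin filaments of actin, tropomyosin and nebulin are anchored in the Z-disc by alpha-actinin, and thick filaments of myosin pull on them. Titin spans from the Z-disc to the middle of the sarcomere. Contraction starts when a voltage-gated calcium channel in the membrane opens release channels of the sarcoplasmic reticulum, a calcium store buffered by calsequestrin and sarcalumenin. Pumps of the *atp2a* family return the calcium to the store, and muscle creatine kinase regenerates the ATP that myosin and pumps consume. Many of the skeletal muscle genes among them are switched on during muscle differentiation, after the progenitor factors.

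The reporter genes and the given markers were read first. The log2 signal of *mylpfa*, the gene behind the mCherry promoter, was 10.71 and 10.87 in double-positive cells, 10.80 and 9.21 in mCherry-only cells, 7.40 and 6.23 in GFP-only cells and 4.58 and 4.73 in double-negative cells. All mCherry-positive arrays thus lay above all mCherry-negative arrays. *myf5* did not separate the GFP-positive arrays, with 5.47 and 5.21 in GFP-only, 3.81 and 6.02 in double-positive, 3.28 and 4.34 in mCherry-only and 3.96 and 4.07 in double-negative cells. All 3 given markers had their highest population mean in an mCherry-positive population. *tpma* and *actc1b* were each called in at least 1 comparison, whereas *casq2* was not called in any. Over all probe sets, 2 arrays of tumour 2 were unlike the rest, with mean rank correlations to the GFP-positive arrays of 0.648 (mCherry-only) and 0.653 (double-negative) against 0.805 to 0.849 for the other 6. For every comparison the number of members called is given with and without this outlying pair. Leaving it out leaves 1 array each of mCherry-only and double-negative cells, whose spread is then taken from the GFP-positive populations. For counts with 1 array left out, the share of all probe sets called was not counted. RNA of other cell types was also present. The summed signal of 9 measured of 12 listed myeloid markers was 6.55 and 6.22 (log2) in GFP-only, 7.84 and 8.19 in double-positive, 11.73 and 11.86 in mCherry-only and 11.80 and 12.02 in double-negative cells. That of 6 measured of 8 erythroid markers was 5.60 and 5.64, 6.17 and 6.32, 9.14 and 11.01, and 11.40 and 12.25 in the same order. The median erythroid marker was 2.84 and 3.26, 2.73 and 2.82, 3.28 and 3.83, and 6.15 and 6.72. In mCherry-only cells the erythroid sum lay mostly in 1 gene, *hbaa1* (9.03 and 10.96). No myeloid or erythroid marker was at 0 on any array, but a value above 0 does not show RNA of these cells. In GFP-only cells the median myeloid marker, 3.13 and 2.60, lay below the lower quartile of every array (3.38 to 3.75). Between mCherry-positive and mCherry-negative cells, the myeloid markers *marco* and *c1qc* were called higher and *lyz* lower. The shares of all probe sets called were 0.258% higher and 0.0258% lower. The remaining myeloid markers and the erythroid markers were not called there. Further lists held slow and cardiac (6 measured of 8), smooth muscle and pericyte (4 of 7), endothelial (3 of 7), fibroblast (4 of 8) and early myogenic (7 of 7) markers. Of these, 0 were called in any of the 9 comparisons, where at most 0.858% of probe sets were called. At that share, lists this small could hold 0 calls. The early myogenic median difference was 1.22 between GFP-positive and GFP-negative cells (-0.01 for all probe sets), with 4 of 7 positive. Fewer muscle cells in a population and less muscle RNA in each cell cannot be told apart in these bulk samples.

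The module as a whole was highest in the double-positive cells and lowest in the double-negative cells. The median log2 signal over the 42 members was 6.20 and 6.37 in double-positive, 6.09 and 5.49 in mCherry-only, 4.82 and 4.52 in GFP-only and 4.29 and 4.27 in double-negative cells, while the median of all probe sets stayed between 4.54 and 4.71. The double-positive arrays were alike, and the mCherry-only array of tumour 2 fell between the other mCherry-positive arrays and the GFP-only arrays. The mean was highest in double-positive cells for 26 of 42 members, against 20.7% of all probe sets. It was highest in mCherry-only cells for 10 members (33.6% of all probe sets), in GFP-only cells for 4 (25.7%) and in double-negative cells for 2 (20.0%). These means include the outlying mCherry-only array of tumour 2. The members' median difference between double-positive and mCherry-only cells was 0.3 in tumour 1 and 1.44 in tumour 2.

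**Figure D1:**
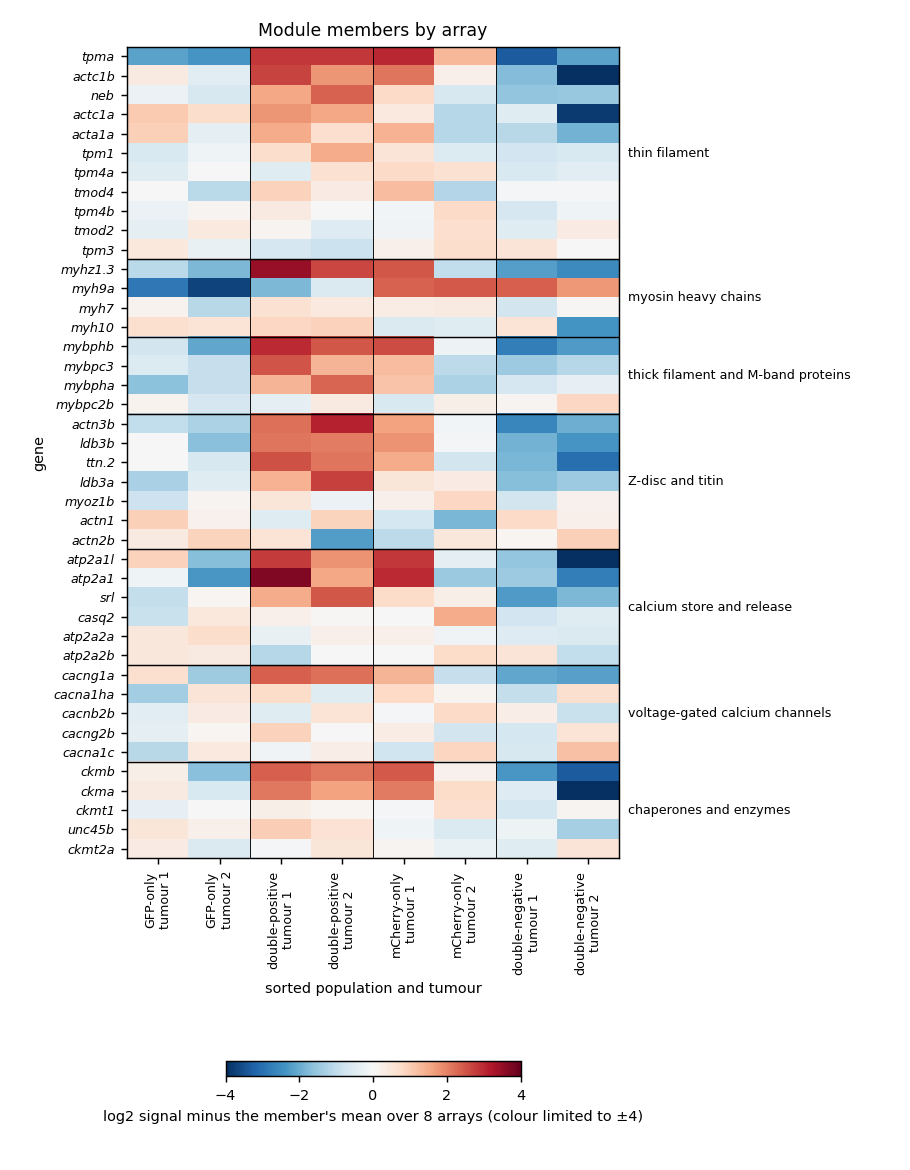
Log2 signal of the 42 members (rows, grouped by role) on the 8 arrays (columns, by sorted population and tumour), as the difference from each member's mean over the arrays, with colour limited to ±4. Most skeletal muscle forms are red in double-positive cells and in mCherry-only cells of tumour 1, paler in mCherry-only cells of tumour 2 and blue in double-negative cells, whereas *myh9a* is blue in the GFP-positive populations.

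The broadest comparison set the 4 mCherry-positive arrays against the 4 mCherry-negative arrays. *tpma* (tropomyosin), *actn3b* (alpha-actinin) and *mybphb* (myosin-binding protein H) were higher in mCherry-positive cells by limma with Benjamini-Hochberg adjustment over all probe sets, and 0 members were called lower. The background was 0.258% of probe sets called higher and 0.0258% called lower. With the tumour as a block, which takes into account that the 4 populations of a tumour are paired, 12 members were called higher against 0.477% of probe sets, and 0 lower against 0.0839%. Added were *actc1b*, *ldb3a*, *ldb3b*, *ttn.2*, *myhz1.3*, *srl*, *atp2a1*, *atp2a1l* and *ckmb*. The difference was positive for 36 of 42 members, with a median of 0.98 on the log2 scale against 0.04 for all probe sets. It was positive for 27 of the 32 skeletal forms, with a median of 1.54, and for 9 of the 10 other forms, with a median of 0.48. For 8 members (*tpma*, *mybphb*, *myhz1.3*, *actn3b*, *ldb3a*, *srl*, *myh7* and *ckma*) every mCherry-positive array lay above every mCherry-negative array, which held for 1.71% of all probe sets, and for 0 members the reverse held (1.02%). Without the outlying pair of tumour 2, 9 members were called higher, against 0.329% of probe sets. The differences of the 3 members called on all arrays were then 5.72 for *tpma*, 4.00 for *actn3b* and 4.75 for *mybphb*. The count fell to 1, *tpma*, without any of the GFP-only, double-positive or tumour 1 mCherry-only arrays, was 2 without the double-negative array of tumour 2, and rose to 6 without that of tumour 1 and to 8 when tumour 2 gave no mCherry-only array.

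**Figure D2:**
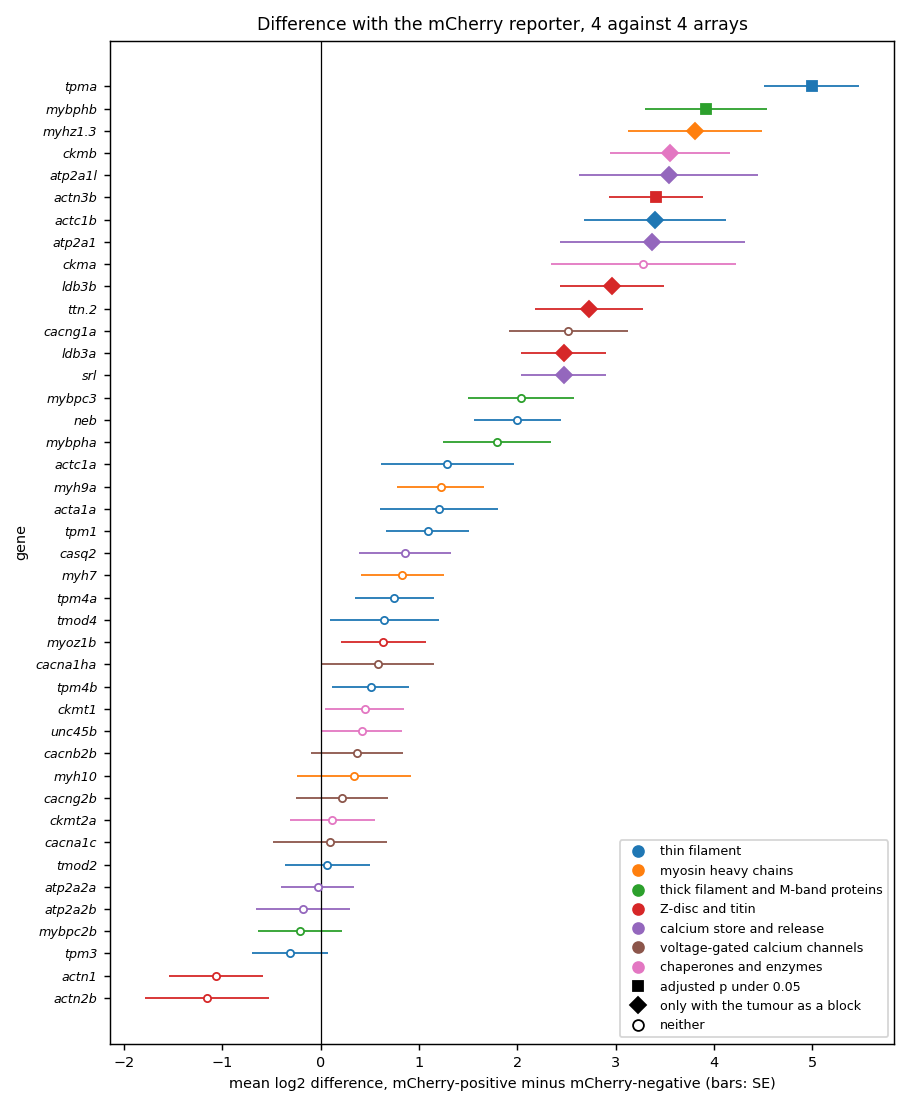
Mean log2 difference of each member between 4 mCherry-positive and 4 mCherry-negative arrays, with limma's standard error as bars and colour by role. Squares mark members with an adjusted p under 0.05, diamonds those called only with the tumour as a block and open circles the rest. *tpma* lies farthest to the right at 4.99 and *actn2b* farthest to the left at -1.15.

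Among the thin filament genes, the muscle tropomyosin *tpma* had the largest difference of all members. Its log2 signal was 10.23 in both double-positive arrays, 10.44 and 8.73 in mCherry-only cells, 5.28 and 5.04 in GFP-only cells and 4.07 and 5.28 in double-negative cells. The mCherry-positive and mCherry-negative arrays were separated by a wide gap, with none in between. The difference was 4.99 ± 0.48 (SE, 4 arrays against 4; limma adjusted p = 0.00288). The call held without any 1 array, with adjusted p between 0.00301 and 0.0497.

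*actc1b*, an alpha actin of striated muscle, was present in GFP-only cells as well. Its signal was 12.30 and 11.37 in double-positive, 11.75 and 9.80 in mCherry-only, 9.98 and 9.17 in GFP-only and 7.88 and 4.61 in double-negative cells. The groups overlapped by a small margin, since the GFP-only array of tumour 1 lay above the mCherry-only array of tumour 2. The difference with mCherry was 3.40 ± 0.72 (limma adjusted p = 0.151, and 0.0101 with the block). A second probe set of the gene also gave 3.40, and its 2 dim probe sets gave -0.37 and 0.71. The other alpha actins had smaller differences. *actc1a*, also a cardiac and skeletal actin gene, had 9.90 and 9.69 in double-positive, 9.18 and 8.82 in GFP-only, 8.51 and 6.99 in mCherry-only and 7.63 and 4.31 in double-negative cells. Its order differed from that of *tpma*, because the GFP-only arrays lay above the mCherry-only arrays in both tumours. *acta1a* differed by 1.20 ± 0.60 (adjusted p = 0.954). The actin coding sequences are very alike, and a probe set of 1 actin gene could read another.

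Nebulin, the giant protein along the thin filament, had 6.04 and 6.84 in double-positive, 5.25 and 3.84 in mCherry-only, 4.25 and 3.85 in GFP-only and 2.90 and 2.96 in double-negative cells (gene *neb*). The mCherry-only array of tumour 2 was level with the GFP-only arrays, and the difference with mCherry was 2.00 ± 0.44 (adjusted p = 0.163). The other tropomyosins had smaller differences, and 0 were called. *tpm3* was between 7.04 and 8.60 on all 8 arrays and lowest in the double-positive cells. *tpm1* had population means in the same order as *tpma*, which were 5.52 (double-positive), 4.41 (mCherry-only), 4.02 (GFP-only) and 3.72 (double-negative). Across mCherry it differed by 1.09 ± 0.42 (adjusted p = 0.769), and *tpm4a* and *tpm4b* by 0.75 ± 0.40 and 0.51 ± 0.39. The pointed-end caps *tmod4* and *tmod2* differed by 0.65 ± 0.55 and 0.07 ± 0.43. Of the 11 thin filament members 10 had a positive difference, and *tpma* was the member called.

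Of the thick filament genes, *mybphb* was called with mCherry with and without the block, and *myhz1.3* with the block. *myhz1.3*, a fast skeletal myosin heavy chain from a cluster of nearly identical copies that a probe set may not tell apart, had 9.26 and 8.45 in double-positive and 8.26 and 4.79 in mCherry-only cells. It had 4.72 and 3.98 in GFP-only and 3.60 and 3.24 in double-negative cells. The lowest mCherry-positive array therefore exceeded the highest mCherry-negative array by little, and the difference of 3.81 ± 0.68 had a limma adjusted p of 0.0586 (0.0101 with the block). *myh7*, the slow and cardiac heavy chain of mammals, stayed between 2.71 and 4.43 on all arrays.

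*mybphb*, a myosin-binding protein H, had 9.62 and 9.13 in double-positive, 9.25 and 6.44 in mCherry-only, 5.93 and 4.56 in GFP-only and 3.88 and 4.38 in double-negative cells. The groups did not overlap, and the difference was 3.92 ± 0.62 (limma adjusted p = 0.0407). The call was lost without any 1 of 6 arrays, namely the GFP-only and double-positive arrays of either tumour, tumour 1's mCherry-only array and tumour 2's double-negative array (adjusted p up to 0.274). Its paralogue *mybpha* was high in both double-positive arrays (6.15 and 7.13) and in mCherry-only cells of tumour 1 (5.93), but not of tumour 2 (3.54). It had 3.15 and 3.88 in GFP-only and 4.12 and 4.45 in double-negative cells, so that mCherry-only cells of tumour 2 lay below the double-negative cells. *mybpc3*, the cardiac myosin-binding protein C of mammals, had 7.27 and 6.12 in double-positive, 5.97 and 3.71 in mCherry-only, 4.21 and 3.82 in GFP-only and 3.28 and 3.59 in double-negative cells. The fast skeletal *mybpc2b* differed by -0.21 ± 0.43.

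Titin and 3 Z-disc genes were among the members with large differences. *actn3b*, the alpha-actinin that is restricted to fast fibres in mammals, had 7.75 and 8.63 in double-positive, 7.17 and 5.45 in mCherry-only, 4.57 and 4.27 in GFP-only and 2.95 and 3.58 in double-negative cells. The groups did not overlap, and the difference was 3.41 ± 0.48 (limma adjusted p = 0.0195). It was no longer called when a GFP-positive array of either tumour or tumour 1's mCherry-only array was left out (adjusted p up to 0.150). The other alpha-actinins differed in the opposite direction without passing the test, *actn2b* by -1.15 ± 0.63 (adjusted p = 0.993) and the non-muscle *actn1* by -1.06 ± 0.48 (adjusted p = 0.911).

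*ldb3a* and *ldb3b* encode Z-disc proteins that bind alpha-actinin. *ldb3a* had 7.37 and 8.71 in double-positive, 6.47 and 6.29 in mCherry-only, 4.68 and 5.49 in GFP-only and 4.27 and 4.52 in double-negative cells. *ldb3b* had 7.69 and 7.59 in double-positive, 7.35 and 5.52 in mCherry-only, 5.54 and 3.88 in GFP-only and 3.68 and 3.20 in double-negative cells. Both genes ran in the order double-positive, mCherry-only, GFP-only, double-negative within each tumour. Their differences with mCherry were 2.47 ± 0.43 (adjusted p = 0.0582, and 0.0171 with the block) and 2.96 ± 0.53 (adjusted p = 0.0611, and 0.0104 with the block).

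*ttn.2*, a titin gene, had 9.35 and 8.95 in double-positive, 8.29 and 6.05 in mCherry-only, 6.81 and 6.16 in GFP-only and 4.96 and 3.79 in double-negative cells. In tumour 2 the mCherry-only and GFP-only cells were level. The difference was 2.73 ± 0.55 (adjusted p = 0.119, and 0.0151 with the block), and the 3 other probe sets of the gene gave 3.18, 2.43 and 1.16. *myoz1b*, which binds calcineurin at the Z-disc, differed by 0.64 ± 0.43 (adjusted p = 0.993).

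Of the calcium store genes 0 were called with mCherry on all arrays, and *srl*, *atp2a1* and *atp2a1l* were called with the block. *srl*, encoding sarcalumenin, had 9.93 and 10.94 in double-positive, 9.19 and 8.67 in mCherry-only, 7.49 and 8.53 in GFP-only and 6.18 and 6.66 in double-negative cells. The groups did not overlap, and the difference was 2.47 ± 0.43 (adjusted p = 0.0586, and 0.0187 with the block). *atp2a1*, the fast muscle calcium pump, had 9.32 and 7.18 in double-positive, 8.60 and 4.15 in mCherry-only, 5.46 and 3.29 in GFP-only and 4.18 and 2.85 in double-negative cells. Its signal was lower in tumour 2 than in tumour 1 in every population, and the mCherry-only array of tumour 2 lay below the GFP-only array of tumour 1. The difference was 3.37 ± 0.94 (adjusted p = 0.384, and 0.0153 with the block).

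*atp2a1l*, a close paralogue whose probe set may share targets with *atp2a1*, had 10.93 and 9.94 in double-positive, 10.98 and 7.78 in mCherry-only, 9.06 and 6.45 in GFP-only and 6.59 and 3.37 in double-negative cells. It too was lower in tumour 2 throughout. Its difference was 3.54 ± 0.91 (adjusted p = 0.303, and 0.00689 with the block). The pumps that mammals use in heart, slow muscle and other tissues, *atp2a2a* and *atp2a2b*, differed by -0.03 ± 0.37 and -0.18 ± 0.48. *casq2*, the calsequestrin of mammalian heart and slow muscle, had 6.15 and 6.02 in double-positive, 5.96 and 7.44 in mCherry-only, 5.08 and 6.37 in GFP-only and 5.19 and 5.49 in double-negative cells. The highest array was mCherry-only cells of tumour 2, and the groups overlapped. The difference was 0.86 ± 0.47 (adjusted p = 0.993), and 0.57 ± 0.54 without the outlying pair.

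Among the voltage-gated channel subunits, *cacng1a*, whose mammalian counterpart belongs to the skeletal muscle channel, had 6.24 and 6.07 in double-positive, 5.22 and 2.94 in mCherry-only, 4.50 and 2.43 in GFP-only and 1.78 and 1.70 in double-negative cells. The double-negative arrays were well below the lower quartile of every array, which lay between 3.38 and 3.75. The difference was 2.52 ± 0.60 (adjusted p = 0.226, and 0.0516 with the block). The other channel subunits had small differences with mCherry, 0.58 ± 0.57 for *cacna1ha*, 0.37 ± 0.47 for *cacnb2b*, 0.22 ± 0.47 for *cacng2b* and 0.10 ± 0.58 for *cacna1c*.

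Of the enzymes and chaperones, the muscle creatine kinases had large differences. *ckmb* had 10.76 and 10.47 in double-positive, 10.81 and 8.54 in mCherry-only, 8.61 and 6.70 in GFP-only and 6.05 and 5.04 in double-negative cells. *ckma* had 11.41 and 10.93 in double-positive, 11.39 and 10.05 in mCherry-only, 9.66 and 8.69 in GFP-only and 8.79 and 3.53 in double-negative cells. The double-negative cells of tumour 1 kept a *ckma* signal close to that of the GFP-only cells, and those of tumour 2 did not. The differences were 3.55 ± 0.61 for *ckmb* (adjusted p = 0.0551, and 0.00502 with the block) and 3.28 ± 0.94 for *ckma* (adjusted p = 0.407). The mitochondrial kinases *ckmt1* and *ckmt2a* differed by 0.45 ± 0.40 and 0.12 ± 0.43. *unc45b*, the chaperone that folds muscle myosin, lay between 6.53 and 8.87 on all arrays and differed by 0.42 ± 0.41.

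**Figure D3:**
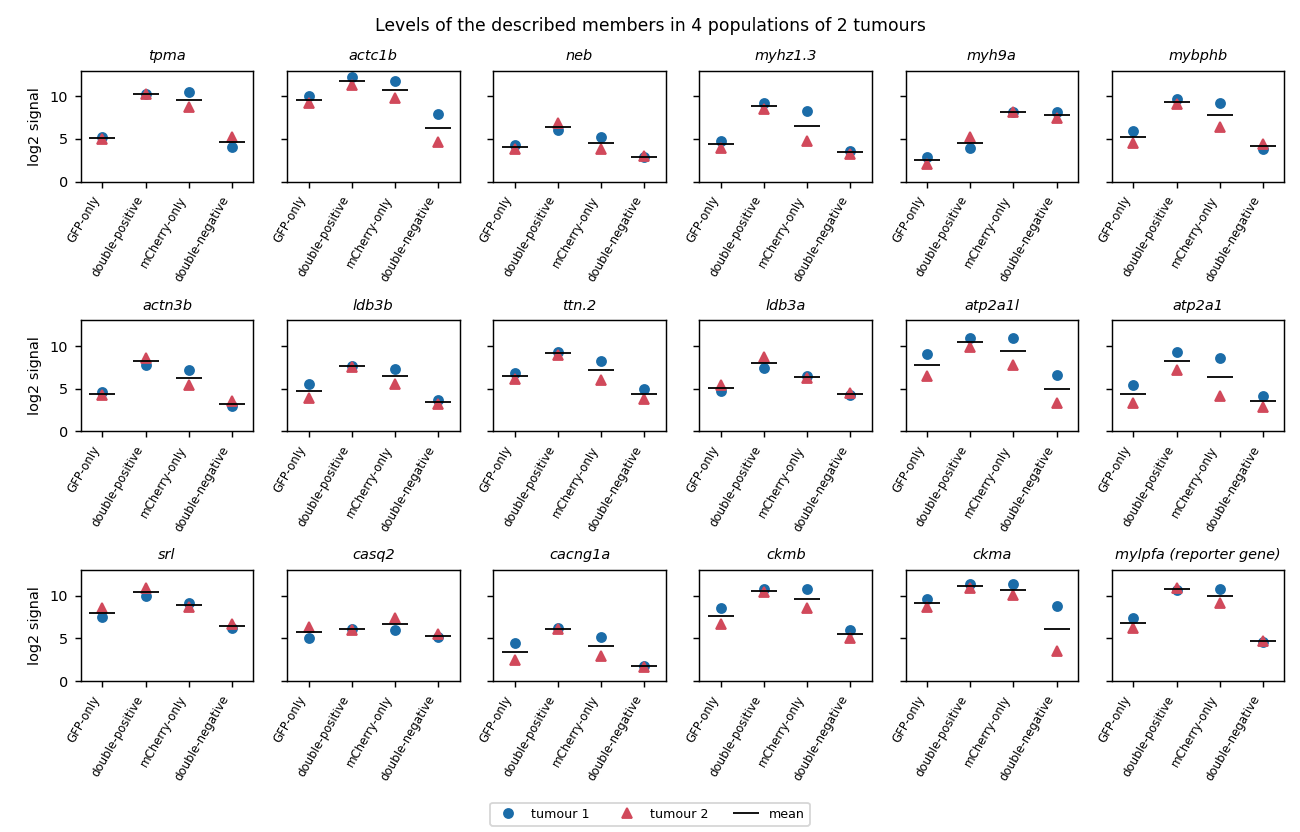
Log2 signal of 17 members and of the reporter gene *mylpfa* in the 4 sorted populations, with circles for tumour 1, triangles for tumour 2 and a bar for their mean. *tpma* is near 10 in double-positive and near 5 in GFP-only and double-negative cells, and the population means of *casq2* lie between 5.34 and 6.70.

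Between double-positive and double-negative cells, 11 members were called higher and 0 lower, against 0.239% and 0.303% of all probe sets. They were *tpma* (5.56 ± 0.69, adjusted p = 0.00742), *actn3b* (4.93), *srl* (4.02), *ttn.2* (4.78), *mybphb* (5.25), *ldb3a* (3.65), *ckmb* (5.07), *myhz1.3* (5.44), *neb* (3.51), *ldb3b* (4.20) and *actc1b* (5.59), with limma adjusted p up to 0.0491. These span thin filament, thick filament, Z-disc, calcium store and creatine kinase genes. With the block 17 members were called higher (0.477% of probe sets) and *myh9a* lower (0.587%). The median difference over the module was 1.68, against 0.05 for all probe sets, and 28 of 42 members were higher in both tumours, against 22.1%. The count was 7 without the outlying pair of tumour 2 (0.181% of probe sets), 2 without its double-negative array alone, and 0 without either double-positive array, which leaves that population with 1 array whose spread is taken from the others.

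Between mCherry-only and double-negative cells, *tpma* was the member called higher, by 4.91 ± 0.69 (adjusted p = 0.0217), and 0 were called lower, against 0.187% and 0.0903% of all probe sets. With the block *atp2a1l*, *ckmb* and *actc1b* were added, against 0.529% called higher. The call for *tpma* did not survive leaving out a double-positive array, tumour 1's mCherry-only array or tumour 2's double-negative array (adjusted p up to 0.141). Without the outlying pair *tpma* was again the member called, at 6.37 ± 0.80 (adjusted p = 0.0168), against 0.0581% called higher, with 1 array against 1. The median difference was 0.78, and 28 of 42 members were higher in both tumours, against 4645 of 15502 probe sets.

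Between double-positive and GFP-only cells, which differ in the mCherry reporter and share GFP, limma called 0 members, against 0.00645% of all probe sets. At an unadjusted p under 0.05 there were 16 members, all higher in double-positive cells, against 1.43% of probe sets higher. With the block *tpma* was called, at 5.07 ± 0.66 (adjusted p = 0.0277; 0.115 without the block), against 0.116% of probe sets. Without the outlying pair of tumour 2, whose arrays do not enter the difference but do enter the estimate of the spread, 4 members were called higher, against 0.129% of probe sets. The median difference was 0.89, and 26 of 42 members were higher in both tumours (22.7% of probe sets). In each tumour the largest included *tpma* (4.95 and 5.19) and *myhz1.3* (4.54 and 4.47).

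Between GFP-only and double-negative cells 0 skeletal members were called. *actc1b* differed by 3.33 ± 1.02 (GFP-only minus double-negative, adjusted p = 0.517; 1.70 ± 0.75 without the outlying pair) and *actc1a* by 3.03 ± 0.96 (adjusted p = 0.560). The median over the module was 0.53, and 24 of 42 members were higher in both tumours, against 31.4% of probe sets. *myh9a* was the member called, lower in GFP-only cells by 5.32 (SE 0.62, adjusted p = 0.00517), against 0.516% of probe sets called. Leaving out tumour 2's GFP-only array ended that call (adjusted p = 0.0660). *myh9a* was also the member called without the outlying pair (adjusted p = 0.0140), against 0.297% of probe sets called lower.

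Against mCherry-only cells, GFP-only cells had 2 members called lower, *tpma* and *myh9a*, and 0 higher, with 0.839% and 0.0194% of probe sets called in these directions. The *tpma* difference was -4.43 ± 0.69 (adjusted p = 0.0145), and the call did not survive leaving out a GFP-only array or tumour 1's mCherry-only array (adjusted p up to 0.137). Leaving out the outlying pair gave 4 members called lower, *tpma*, *myh9a*, *myhz1.3* and *mybphb*, against 0.684% of probe sets. The median over the module was -0.65, and 23 of 42 members were lower in both tumours, against 36.3% of probe sets.

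*myh9a*, a heavy chain of non-muscle myosin II that is abundant in blood cells, was lowest in the GFP-positive populations. Its log2 signal was 2.91 and 2.07 in GFP-only, 3.96 and 5.17 in double-positive, 8.12 and 8.21 in mCherry-only and 8.14 and 7.48 in double-negative cells. It split the arrays by GFP and not by mCherry, with no overlap between GFP-positive and GFP-negative arrays. The share of all probe sets without overlap by GFP was not counted. *actc1a* and *unc45b* did not overlap by GFP either, in the other direction. Their lowest GFP-positive arrays had 8.82 and 8.08, and their highest GFP-negative arrays 8.51 and 7.71. Across GFP *myh9a* differed by -4.46 ± 0.44 (GFP-positive minus GFP-negative, limma adjusted p = 0.00133), and the call held without any 1 array (adjusted p up to 0.0157). It was the 1 member called in that comparison, where 0.826% of probe sets were called lower and 0.0129% higher. It was also the 1 member called without the outlying pair, at -4.6 ± 0.55 (adjusted p = 0.00302), against 0.548% lower. The myeloid marker sums given above followed the same split, and 7 of the 9 measured myeloid markers and 2 of the 6 erythroid markers were called lower in GFP-positive cells. Their part in the result was not tested. The other non-muscle heavy chain, *myh10*, had 7.28 and 7.16 in GFP-only, 7.45 and 7.54 in double-positive, 6.04 and 6.15 in mCherry-only and 7.17 and 4.22 in double-negative cells. With the tumour as a block, *actc1a* (2.54 ± 0.51), *ttn.2* (2.05 ± 0.40) and *actc1b* (2.2 ± 0.45) were called higher in GFP-positive cells (adjusted p = 0.0411, 0.0346 and 0.0447), against 0.219% of probe sets. Without the block their adjusted p-values were 0.181, 0.180 and 0.295. Without the outlying pair, whose arrays are both GFP-negative, their differences were smaller, at 1.33, 1.19 and 0.89. Unlike *myh9a*, 29 of 42 members were higher in GFP-positive cells. On all arrays, with the outlying pair on the GFP-negative side, the module's median difference across GFP was 0.64. It was 1.16 for the skeletal forms, against -0.01 for all probe sets. At an unadjusted limma p under 0.05, 15 members were higher (6.29% of probe sets) and 1 lower (5.01%).

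Double-positive cells were next set against mCherry-only cells. Over both tumours *myh9a* was the member called, lower in double-positive cells with a difference of -3.60 ± 0.62 (adjusted p = 0.0479), against 0.329% of probe sets called. That call was lost without any 1 of the 6 GFP-only, double-positive and mCherry-only arrays. Without the outlying pair 0 members and 0.0% of probe sets were called. A further 10 members had an unadjusted p under 0.05, 9 of them higher in double-positive cells, and 7.69% of all probe sets did so in either direction. In tumour 1 the module's median difference was 0.30, and 0 of 42 members were higher in double-positive cells by 2 or more (0.568% of probe sets). In tumour 2 the median was 1.44, and 16 members were higher by 2 or more (8.17% of probe sets). These included *myhz1.3* (3.66), *mybpha* (3.59) and *actn3b* (3.18). In both tumours together 23 of 42 members were higher in double-positive cells, against 29.5% of probe sets. With 1 array per population and tumour, 1 of them the outlying mCherry-only array of tumour 2, the tumours were not tested against each other.

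**Figure D4:**
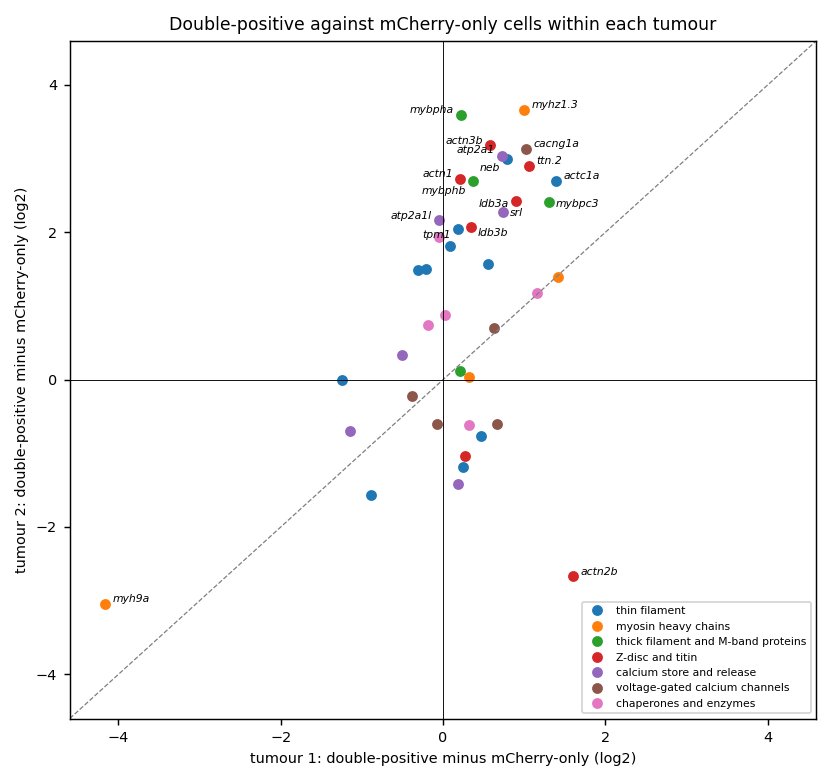
Log2 difference between double-positive and mCherry-only cells for each of the 42 members, in tumour 1 (horizontal axis) and tumour 2 (vertical axis), coloured by role, with the dashed line marking equal differences. Members with a difference of at least 2 in tumour 2 or at least 1.5 in tumour 1 are named. A cloud of members sits above 2 in tumour 2 and between 0 and 1.5 in tumour 1, *myh9a* is negative in both, and *actn2b* changes sign.

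Of the 4 populations, mCherry-only cells had the largest median difference between the tumours. Between the tumours the median member differed by -0.86 in mCherry-only cells (tumour 2 minus tumour 1), by -0.18 in double-positive, by -0.33 in GFP-only and by 0.11 in double-negative cells. The medians over all probe sets were 0.14, 0.12, 0.12 and 0.03 in the same order. A fall of 2 or more was seen for 11 of 42 members in mCherry-only cells (3.99% of probe sets), for 2 in double-positive (1.61%), for 3 in GFP-only (2.92%) and for 5 in double-negative cells (6.71%). In double-negative cells these were *ckma*, *actc1a*, *actc1b*, *atp2a1l* and *myh10*. The erythroid marker sum in mCherry-only cells was 9.14 in tumour 1 and 11.01 in tumour 2, and the myeloid sum 11.73 and 11.86. The erythroid sum lay mostly in *hbaa1* (9.03 and 10.96), and the median erythroid marker was 3.28 and 3.83. The part of erythroid and myeloid cells in the tumour difference was not tested. The mCherry-only array of tumour 2 also stood apart over all probe sets, as given above.

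The test of whether both reporters combine beyond their separate differences found 0 members and 0 of all probe sets with an adjusted p under 0.05 (0.0%). At an unadjusted p under 0.05, *mybpha* was the 1 member, at 2.68 ± 1.11, against 2.3% of probe sets, and with the block, or without the outlying pair, the adjusted count was also 0.

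Partner genes outside the name rule were read from 3 lists. Of the troponins and myosin light chains, 16 of 31 listed genes were measured, and 7 were called higher and 0 lower with mCherry, against 0.258% and 0.0258% of all probe sets. Among them were *tnni2a.4* (5.45 ± 0.51, adjusted p = 0.00288) and *tnnc2.2* (5.23 ± 0.52, adjusted p = 0.00288), both fast troponin subunits. This list includes the reporter gene *mylpfa*. Of genes for sarcomere and costamere assembly, 21 of 52 were measured and 2 were called higher, the muscle ubiquitin ligases *trim55b* (3.57 ± 0.47, adjusted p = 0.0162) and *trim63b* (3.16 ± 0.53, adjusted p = 0.0499). Of the excitation-contraction partners, 24 of 51 were measured, and 3 parvalbumins, calcium buffers of fast muscle, were called higher. *pvalb1* differed by 5.53 ± 0.50, *pvalb2* by 6.38 ± 0.61 and *pvalb4* by 5.59 ± 0.44, with adjusted p between 0.00275 and 0.00288. The median differences of the 3 lists were 1.84, 0.64 and 0.53, against 0.98 for the module and 0.04 for all probe sets. Between double-positive and double-negative cells 7, 2 and 3 genes of the lists were called higher and 0 lower, against 0.239% and 0.303% of all probe sets, and the medians were 3.68, 2.09 and 1.58.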

How the data were processed

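Affymetrix zebrafish arrays of 8 samples were used, the 4 sorted populations of 2 tumours. Per the labels, total RNA was amplified with NuGEN's Ovation Pico WTA kit and labelled with biotin. The authors' deposited table holds log-scale values, taken as log2. The sources used here do not state the log base, summarisation or scaling, and signal over background is not known. Array medians lay between 4.54 and 4.71, and precision is limited by the number of arrays.

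Probe sets were named from GEO's platform annotation. Of 15502, 10795 had 1 symbol, 135 several and 4572 none, and 10711 matched RefSeq by gene identifier. A model of the 4 population means was fitted to the deposited values of all 8 arrays in limma 3.58.1 (R 4.3.3), with 4 residual degrees of freedom. All tests were two-sided with Benjamini-Hochberg adjustment across the whole table, separately for 9 comparisons (6 pairs of populations, each reporter, and their interaction), with a threshold of 0.05. The reporter comparisons average over the other reporter. The populations of a tumour are paired by the shared tumour, as the labels state. Correlations of same-tumour deviations between populations ran from -0.0291 to 0.492, and a fit with the tumour as a block is given where it changed a call. The p-values without the block treat the arrays as independent.

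Values on every array are given for 17 members: the 3 markers, every member called without the block and the 12 with the largest absolute difference between mCherry-positive and mCherry-negative cells. Further members whose array values are printed were chosen after their values were seen. The members and all lists were chosen with earlier results of these data known. The fit was also run on simulated data with independent arrays, without a tumour effect or outlying arrays. That run does not bear on the pairing or on the outlying pair. Alternatives were quantile normalization, a filter on the dimmest 30% of probe sets, another prior, the mean over a gene's probe sets, skeletal forms alone, the compared arrays alone, and arrays left out.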

Additional observations from a re-analysis of the deposited data

Results flagged for a closer look

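For 3 members, all arrays of 1 group moved one way and all of the other group the opposite way. The interaction of both reporters, which tests this difference, had a limma adjusted p of 1.0 for each. *atp2a2a*, a calcium pump, was lower in double-positive than in GFP-only cells (-0.74 and -0.52) but higher in mCherry-only cells when set against double-negative cells (0.72 and 0.44), an interaction of -1.21 on the log2 scale. A second, dimmer probe set of the gene went the other way. Its mean differences were 1.37 and -0.40, and its interaction was 1.77. *mybpha* was higher in double-positive than in mCherry-only cells (0.22 and 3.59) but lower in GFP-only cells against double-negative cells (-0.97 and -0.57), an interaction of 2.68. *tpm4a* was lower in double-positive than in mCherry-only cells (-1.24 and -0.01) but higher in GFP-only cells against double-negative cells (0.13 and 0.43), an interaction of -0.91. It met the pattern only through its difference of -0.01. The share of all probe sets with such opposite moves was not counted. Whether 3 members exceed that background is therefore not known.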

How the results depend on the processing

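The number of members called changed with the setting. With the tumour as a replicate block, the counts moved from 3 to 12 for mCherry, 11 to 18 for double-positive against double-negative, 1 to 4 for mCherry-only against double-negative, 1 to 4 for GFP and 0 to 1 for double-positive against GFP-only. Without the outlying pair of tumour 2 they were 9 for mCherry, 7 for double-positive against double-negative, 4 for GFP-only against mCherry-only (2 with all arrays), 4 for double-positive against GFP-only and 0 for double-positive against mCherry-only (1 with all arrays). For mCherry, the filter on dim probe sets gave 6 and the trended robust prior 5. Fitting the compared arrays alone gave 4 for double-positive against GFP-only and 0 for mCherry-only against double-negative. Counting skeletal forms alone, which leaves out *myh9a*, gave 1 for GFP-only against mCherry-only and 0 for GFP-only against double-negative, double-positive against mCherry-only and GFP. Leaving out each array in turn gave 1 to 8 for mCherry, 0 to 12 for double-positive against double-negative, 0 to 3 for mCherry-only against double-negative, 1 to 2 for GFP-only against mCherry-only, 0 to 4 for GFP-only against double-negative, 0 to 1 for double-positive against GFP-only and against mCherry-only, 1 to 5 for GFP, and 0 for the interaction. The share of all probe sets called was not counted for the filter, the prior, the compared arrays alone or each array left out. Whether the members or the whole table moved there is therefore not known. The causes were not tested. Beyond the calls named or counted above, the block changed no other call of the named members. Of the values of named members under the alternative settings, the block included, 242 kept their side of the threshold, 38 passed it newly and 13 lost it. With 1 array left out these numbers were 275, 18 and 67, and 0 changed sign.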
